A study of Rattus norvegicus with 21 samples.

Results

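The actin cytoskeleton and smooth muscle contractile genes comprise the actins, the proteins that bind, cross-link, anchor or move actin filaments, the muscle intermediate filament gene Des and the transcription factor Srf. The list named 36 genes. A gene counted as measured when at least 1 probe set carried its symbol alone, and where several did, the brightest of them on average over the 21 arrays stood for the gene. By this rule 32 members were measured, out of 14217 genes in the series. Of these, 11 are best known from muscle (Acta1, Acta2, Actg2, Cnn1, Tagln, Tpm2, Myl9, Mylk, Csrp1, Fhl2 and Des) and 21 are of general use in cells. The probe sets of Actb, Actc1, Myl6 and Cfl1 each carried several symbols, and these 4 genes were not analysed here.

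The arrays hold RNA of forebrain astrocytes of Sprague Dawley rats, in 7 groups of 3 arrays that the labels call biological replicates. Withdrawn P7 cultures came from postnatal day 7 and spent 7 days in 10% foetal calf serum, were rinsed in phosphate-buffered saline, and then spent 7 more days in serum-free medium with HBEGF, which makes 14 days in all. Serum P7 cultures were astrocytes of the same age grown for 7 days in 10% foetal calf serum. MD cultures were made from day 1 forebrain by the method of McCarthy and de Vellis, in which a mixed glial culture is grown in serum, here 10% for 7 days. HBEGF P7 and HBEGF P1 cultures were grown without serum for 7 days in HBEGF, a ligand of the EGF receptor, at 5 ng/ml. Fresh P7 and fresh P1 cells were lysed right after isolation. All groups but MD were isolated by immunopanning on the integrin ITGB5, so the MD cultures differ from the HBEGF P1 cultures in the method of isolation as well as in the medium. The labels name HBEGF for the HBEGF and the withdrawn cultures and not for the serum P7 and MD cultures, so serum and the absence of HBEGF cannot be told apart. The labels do not say which animals or litters gave each replicate, so p-values measure the spread between these arrays. One label of the HBEGF P7 cultures gives day 1 where the title and the source name give day 7, and the title was followed.

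Actin monomers assemble into filaments, which myosin motors pull on, tropomyosins and calponins coat, and alpha-actinin and filamin tie into bundles and nets. Smooth muscle, pericytes and myofibroblasts carry a set of muscle forms of these proteins, such as smooth muscle alpha-actin (Acta2), transgelin (Tagln) and calponin 1 (Cnn1). Many genes of the set are targets of serum response factor, encoded by Srf, which binds a short DNA element called the CArG box. When monomeric actin is used up by filament assembly, its binding partners of the myocardin-related family are free to join SRF in the nucleus, and serum is a well known trigger of this route in cultured fibroblasts.

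All values are log2 of the deposited array intensity, 1 value per gene and array. A change is a difference of group means in 1 limma model of the 7 groups, and it was called when the Benjamini-Hochberg adjusted p over all 31042 probe sets was under 0.05 and the change was at least 1 on the log2 scale. The words rose and fell are used of called changes only. Changes in RNA per cell cannot be told apart from changes in the share of cells that carry the RNA, since each array reads a whole culture. Array medians lay between 128.002 and 146.25 intensity units, and the Spearman correlation of arrays within a group over all probe sets lay between 0.963 and 0.994. The third serum P7 array stood apart from the rest of its group (0.974 and 0.979, against 0.994 between the first and the second), and so did the third withdrawn P7 array (0.979 and 0.980, against 0.994), the first fresh P1 array (0.980 and 0.982, against 0.994) and the first MD array (0.978 and 0.982, against 0.991). The HBEGF P7 arrays correlated the least, at 0.963 to 0.977. Of 10 astrocyte markers, at least 8 lay above the median of all log2 values, 7.11, in every group, with a summed intensity of 62448 to 74947 units in MD cultures and 99056 units or more in the other groups.

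Most of the actin and contractile genes were highest in a serum-grown group. The MD cultures had the highest mean of all 7 groups for 24 of the 32 members, whereas they were highest for 29.5% of all genes. Serum P7 cultures were highest for 5 members (Actg2, Tpm2, Fhl2, Des and Myh10), withdrawn P7 cultures for Cnn3, fresh P7 cells for Mylk and fresh P1 cells for Srf. The distance between a gene's highest and lowest group mean had a median of 2.32 over the members, of 3.75 over the 11 muscle members and of 1.79 over the 21 general ones, beside 0.95 over all genes.

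**Figure D1:**
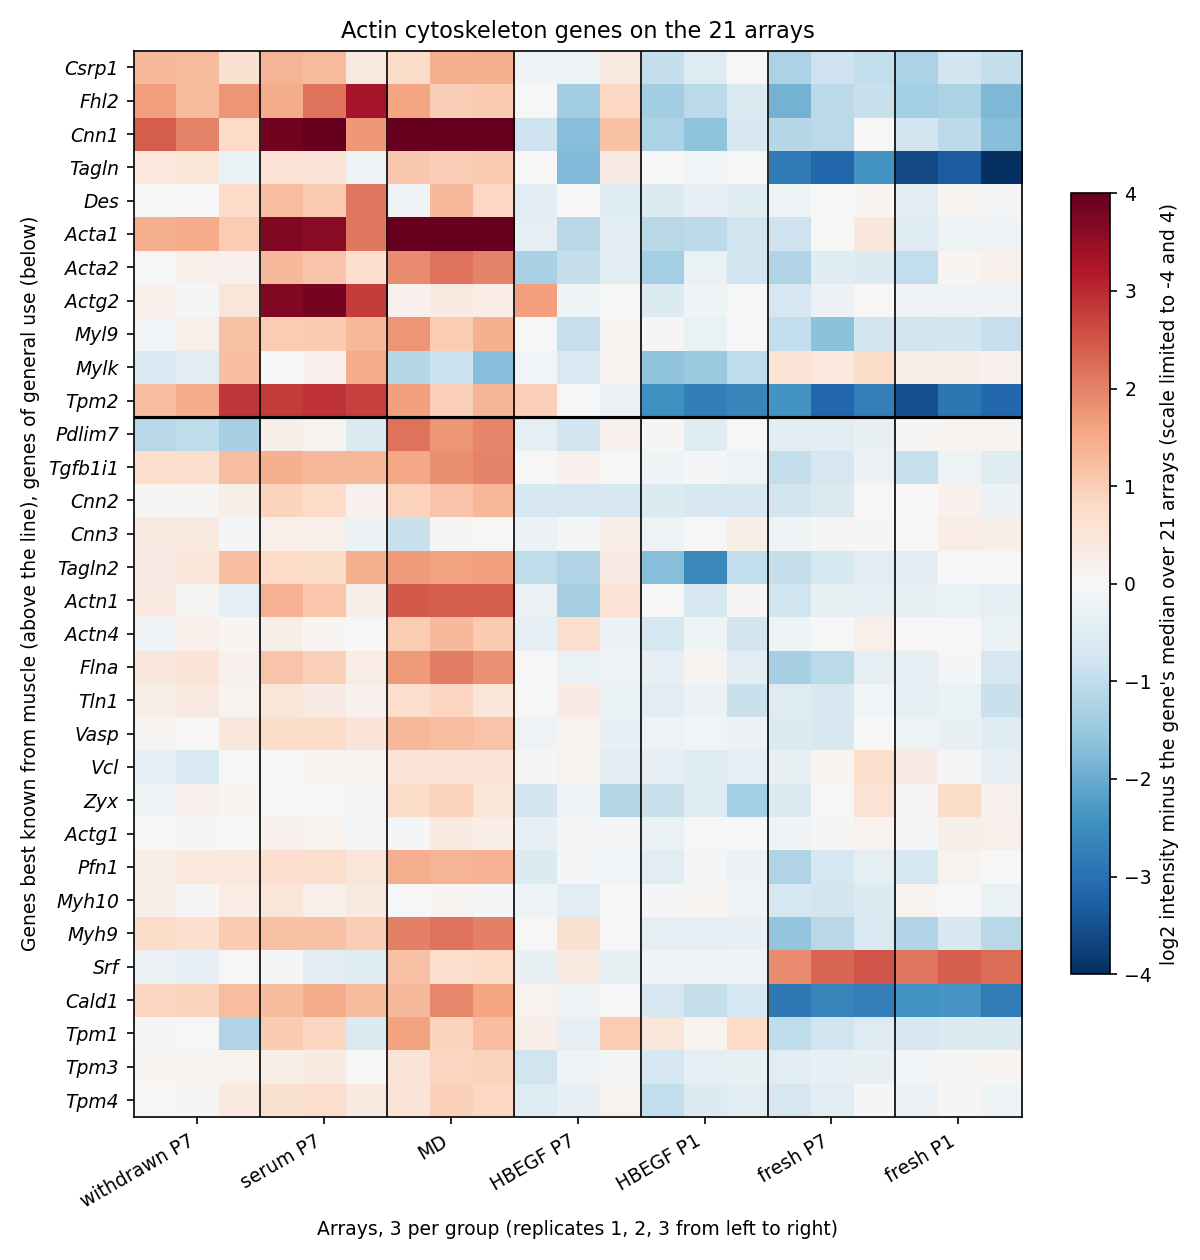
Each row is a member and each column an array, 3 per group in replicate order, and the colour gives log2 intensity minus the gene's median over the 21 arrays, limited to -4 and 4. The muscle members stand above the line and the general ones below it. Red cells gather in the MD, serum P7 and withdrawn P7 columns, most strongly for Acta1 and Cnn1, while Srf is red in the fresh columns and Tagln and Cald1 are blue there.

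MD cultures were set against HBEGF P1 cultures to compare serum-grown and serum-free astrocytes of day 1. In MD cultures 25 of the 32 members rose (8.81% of all genes did) and 0 fell (9.57% of all genes). Among those that rose were 9 of the 11 muscle members and 16 of the 21 general ones. The median change was 1.64 over the members, 1.69 over the muscle members and 1.64 over the general ones, against 0.09 over all genes. Serum P7 cultures were set against HBEGF P7 cultures to compare growth with and without serum in cells isolated in 1 way. There 13 members rose (4.83% of all genes) and 0 fell (4.47%), and 8 of these were muscle members. The median change was 0.88 over the members, 1.94 over the muscle members and 0.68 over the general ones, against a median of 0.00 over all genes. With the third serum P7 and withdrawn P7 arrays both left out, a check added after the data were seen, 15 members rose in serum P7 over HBEGF P7 cultures.

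These 2 comparisons share no array. Between them, 12 members rose in both, which is 48.0% of the members raised in MD cultures and 92.3% of those raised in serum P7 cultures, while of all genes raised in MD and in serum P7 cultures 26.5% and 48.4% rose in both: Acta1, Acta2, Actn1, Cald1, Cnn1, Cnn2, Des, Fhl2, Myl9, Tagln2, Tgfb1i1 and Tpm2. As 25 of the 32 members rose in MD cultures and 13 in serum P7 cultures, many would be shared by these rates alone. The members' shares thus do not measure agreement between the comparisons. Actg2 rose in serum P7 cultures alone of the pair. The other 13 passed the rule in MD cultures and not in serum P7 cultures, and the difference between the changes was called for 5 of these (Actn4, Flna, Myh9, Pdlim7 and Srf) and not for the other 8.

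**Figure D2:**
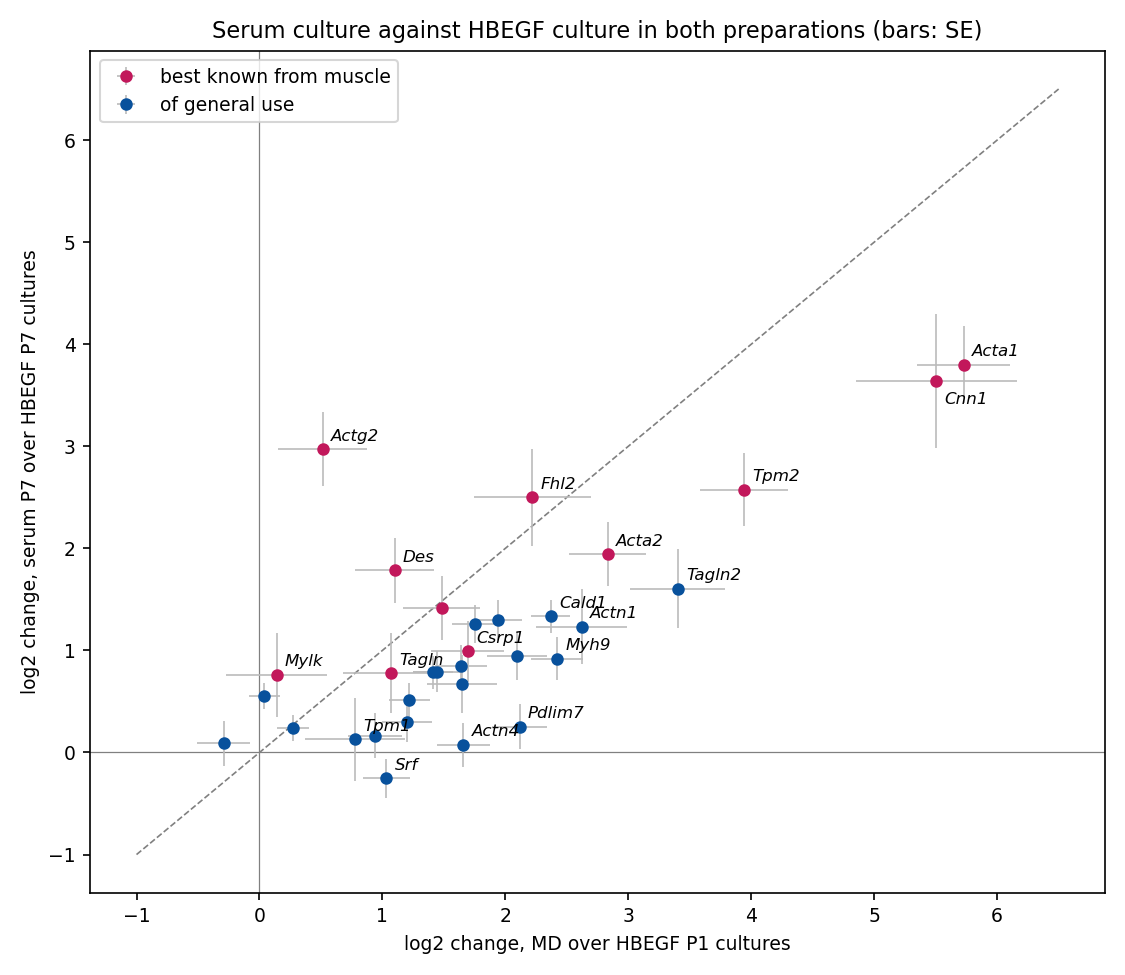
Each point is a member, with the log2 change of MD over HBEGF P1 cultures on the x axis and of serum P7 over HBEGF P7 cultures on the y axis, bars giving the SE of each. The dashed line marks equal changes. Most points lie to the right of 0 and below the line, Acta1 and Cnn1 lie farthest out, and Actg2 lies far above the line (0.52 and 2.97).

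Markers of other cells that carry muscle actins were read beside these values. The 10 fibroblast and meningeal markers had a summed intensity of 52164 to 75834 units in withdrawn P7 cultures, 54329 to 82295 in serum P7 cultures, 6981 to 7818 in MD cultures, 7325 to 30549 in HBEGF P7 cultures, 6297 to 7381 in HBEGF P1 cultures, 6321 to 14078 in fresh P7 cells and 3041 to 8287 in fresh P1 cells. Of these markers 7 rose in serum P7 over HBEGF P7 cultures (4.83% of all genes), with a median change of 1.675. In MD over HBEGF P1 cultures 2 rose (8.81% of all genes) and 5 fell (9.57%), with a median change of -0.83, and the ranges of the sum overlapped. The collagen gene Col1a2, the brightest marker in MD cultures, was 1 of the 2 that rose there, by 1.59 (adjusted p = 0.00367). In the P7 serum and withdrawn cultures the sum was higher than in any other group. The 10 mural cell markers summed to 2894 to 3258 units in withdrawn P7, 1548 to 3540 in serum P7, 860 to 932 in MD, 1064 to 1540 in HBEGF P7 and 887 to 933 in HBEGF P1 cultures, and to 1582 to 2530 in fresh P7 and 1208 to 1601 in fresh P1 cells. Of the 10, 8 had a mean under the median of all values in MD cultures, and 1 fell there against HBEGF P1 cultures (Pdgfrb, -1.52), while the same gene rose in serum P7 over HBEGF P7 cultures (1.37). Myh11, the heavy chain of smooth muscle myosin, stands in both the mural and the smooth muscle list. Of 8 neuron markers 4 fell in each of these 2 comparisons. Of all genes 9.57% fell in MD over HBEGF P1 cultures and 4.47% in serum P7 over HBEGF P7 cultures. None of 8 microglia and macrophage markers was called in either, and of 7 endothelial markers 1 rose in serum P7 cultures. The 6 oligodendrocyte lineage markers summed to 3456 to 5246 units in MD and 21141 to 26130 in HBEGF P1 cultures, where 2 of them fell (Pdgfra and Sox10), and to 7431 to 14172 in serum P7 and 12555 to 25478 in HBEGF P7 cultures, where 0 were called. The part of all these markers in the members' changes was not tested.

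Promoter windows from RefSeq on the GRCr8 build, from 250 bases before to 50 bases after each annotated start, were searched for the element that SRF binds, since so many members moved together. Windows were found for 29 of the 32 members, 35 windows in all. A CArG box stood in a window of 5 members (17.2%), Acta1, Actg1, Cnn2, Fhl2 and Srf, against 1.77% of all 27457 genes with a window. A CArG box with 1 of its central bases changed stood in windows of 6 members (20.7%), Acta1, Acta2, Tgfb1i1, Tpm3, Vasp and Zyx, against 8.68% of all genes. The MCAT element of muscle genes, CATTCC or its complement GGAATG, stood in windows of 12 members (41.4%) against 4128 of all 27457 genes. Both strands were searched. Matches are descriptions of letters in these windows, not of sites in use.

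Acta1, skeletal alpha-actin, and Acta2 are shown in full because they are muscle actins that rose in both serum-grown groups, and Srf because it encodes the factor itself. Capitals mark CArG boxes, including those with 1 changed base. The windows are read 5′ to 3′ on the gene's strand. Acta1 lies at chr19:68784145-68784444, minus strand, Acta2 at chr1:241172454-241172753, minus strand, and Srf at chr9:21923826-21924125, plus strand.
Acta1: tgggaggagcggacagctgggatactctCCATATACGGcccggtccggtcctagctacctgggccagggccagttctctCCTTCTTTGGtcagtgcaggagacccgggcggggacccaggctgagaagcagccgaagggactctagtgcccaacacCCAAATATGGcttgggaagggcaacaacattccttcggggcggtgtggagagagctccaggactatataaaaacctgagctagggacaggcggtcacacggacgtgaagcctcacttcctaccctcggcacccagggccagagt
Acta2: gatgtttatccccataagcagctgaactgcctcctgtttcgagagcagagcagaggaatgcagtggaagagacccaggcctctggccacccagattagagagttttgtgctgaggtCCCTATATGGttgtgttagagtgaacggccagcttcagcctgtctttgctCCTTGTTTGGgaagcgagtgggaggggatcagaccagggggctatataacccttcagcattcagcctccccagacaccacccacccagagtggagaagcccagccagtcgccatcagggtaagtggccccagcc
Srf: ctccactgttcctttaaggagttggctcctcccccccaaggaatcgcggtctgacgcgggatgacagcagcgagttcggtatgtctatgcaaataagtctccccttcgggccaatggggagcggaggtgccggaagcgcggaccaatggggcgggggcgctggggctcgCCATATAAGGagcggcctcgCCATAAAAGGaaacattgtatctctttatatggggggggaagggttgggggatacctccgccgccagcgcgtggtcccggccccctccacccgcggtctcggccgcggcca
The complete box of Acta1 begins 94 bases before the start, and the changed ones begin 222 and 171 bases before it. Acta2 has 2 changed boxes, which begin 134 and 84 bases before its start. Srf has a pair of complete boxes, which begin 81 and 61 bases before its own start.

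Stretches of 60 bases around the complete boxes of the other 3 genes are given for comparison, since Cnn2 and Fhl2 rose in both serum-grown groups and Actg1, cytoplasmic gamma-actin, was called in 0 of the comparisons. They lie at chr7:10370349-10370408, minus strand for Cnn2, at chr9:52923350-52923409, minus strand and chr9:52954601-52954660, minus strand for the 2 windows of Fhl2, and at chr10:106121007-106121066, minus strand for Actg1.
Cnn2: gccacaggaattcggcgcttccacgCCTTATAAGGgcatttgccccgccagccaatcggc
Fhl2, first window: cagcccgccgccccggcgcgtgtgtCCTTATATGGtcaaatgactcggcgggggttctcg
Fhl2, second window: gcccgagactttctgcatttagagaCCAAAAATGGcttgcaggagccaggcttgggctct
Actg1: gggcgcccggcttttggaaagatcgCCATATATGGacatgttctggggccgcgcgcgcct
The boxes begin 71 bases before the start in Cnn2, 58 and 95 bases in the 2 windows of Fhl2, and 90 bases in Actg1. A complete box stood in Acta1, Cnn2 and Fhl2, which rose in both serum-grown groups, and in Actg1, whose 2 probe sets did not pass the rule. The part of these boxes in the changes was not tested.

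**Figure D3:**
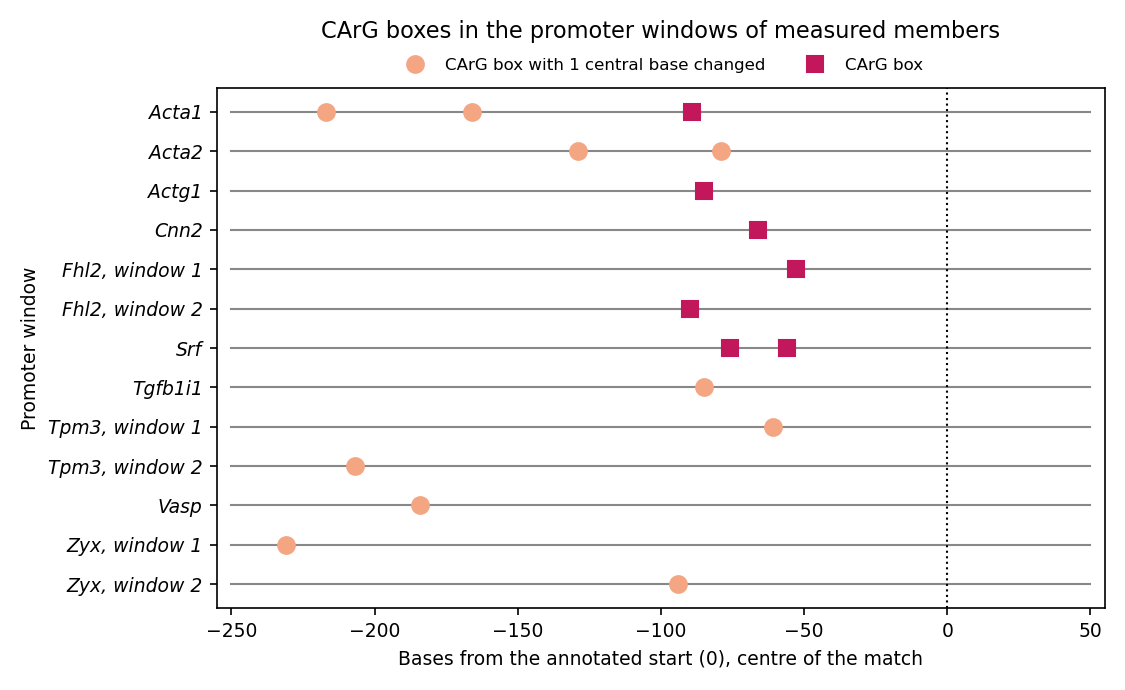
Each line is a promoter window of a member, with bases from the annotated start on the x axis, squares for CArG boxes and circles for boxes with 1 central base changed. The complete boxes lie within 95 bases before the start in all 6 windows that hold one, and the changed ones are spread over the windows.

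Acta1, the actin of skeletal muscle, had the largest change in both serum comparisons. It read 7.45, 7.48 and 7.00 in withdrawn P7 cultures, 9.71, 9.62 and 8.12 in serum P7 cultures and 11.05, 10.18 and 10.98 in MD cultures. In HBEGF P7 cultures it read 5.61, 4.88 and 5.56, in HBEGF P1 cultures 4.88, 4.96 and 5.19, in fresh P7 cells 5.18, 5.995 and 6.45 and in fresh P1 cells 5.49, 5.80 and 5.84. All arrays of the serum-grown groups and of the withdrawn cultures lay above all others. The change was 5.73 (SE 0.38, adjusted p = 1.09e-08) in MD over HBEGF P1 cultures and 3.80 (SE 0.38, adjusted p = 4.85e-06) in serum P7 over HBEGF P7 cultures. The second of these was smaller by 1.93 (SE 0.53, adjusted p = 0.0233), a call that was lost without the first or the third MD array (adjusted p = 0.0609 and 0.0581) and in a fit of the compared groups alone (adjusted p = 0.0599).

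Acta2, smooth muscle alpha-actin and the usual marker of myofibroblasts, rose in the same comparisons as Acta1. Its levels were 9.10, 9.29 and 9.25 in withdrawn P7 cultures, 10.39, 10.24 and 9.76 in serum P7 cultures, 10.99, 11.28 and 11.09 in MD cultures, 7.78, 8.13 and 8.65 in HBEGF P7 cultures and 7.73, 8.81 and 8.32 in HBEGF P1 cultures. Fresh P7 cells had 7.89, 8.60 and 8.56 and fresh P1 cells 8.11, 9.17 and 9.26, which overlapped with both HBEGF groups. The change was 2.83 (SE 0.31, adjusted p = 2.48e-06) in MD over HBEGF P1 cultures and 1.94 (SE 0.31, adjusted p = 0.000389) in serum P7 over HBEGF P7 cultures, with no overlap of arrays in either.

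Actg2, the gamma-actin of enteric smooth muscle, set the serum P7 cultures apart from every other group. It read 8.82, 8.93 and 7.90 there, against 5.29, 5.07 and 5.59 in withdrawn P7 cultures, 5.27, 5.46 and 5.40 in MD cultures and 6.73, 4.92 and 5.07 in HBEGF P7 cultures. The HBEGF P1 cultures and both fresh groups lay between 4.43 and 5.10. Outside the serum P7 cultures every array was thus under the median of all log2 values, 7.11, with the first HBEGF P7 array as the highest. The change was 2.97 (SE 0.36, adjusted p = 3.27e-05) in serum P7 over HBEGF P7 cultures and 0.52 (SE 0.36, adjusted p = 0.286) in MD over HBEGF P1 cultures, and the difference between these changes was itself called, at 2.46 (SE 0.51, adjusted p = 0.00418). Muscle actins have nearly the same coding sequence, so probes could take up some RNA of a related gene, which was not tested.

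Actg1, a cytoplasmic actin found in nearly all cells, was nearly level by its brighter probe set. Its group means lay between 14.55 ± 0.16 in HBEGF P7 cultures and 14.89 ± 0.20 in MD cultures (SD, n = 3 each), a distance of 0.34. It was called in 0 of the 11 comparisons run, and its change was 0.27 (adjusted p = 0.11) in MD over HBEGF P1 cultures and 0.24 (adjusted p = 0.212) in serum P7 over HBEGF P7 cultures. Its other, dimmer probe set gave 0.99 (adjusted p = 0.000456) and 0.75 (adjusted p = 0.00855) in these, short of the limit of 1. The brighter probe set averaged 24091 units in HBEGF P7 and 30637 in MD cultures, near the highest deposited value, 37800.668. Whether its changes were compressed there was not tested.

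**Figure D4:**
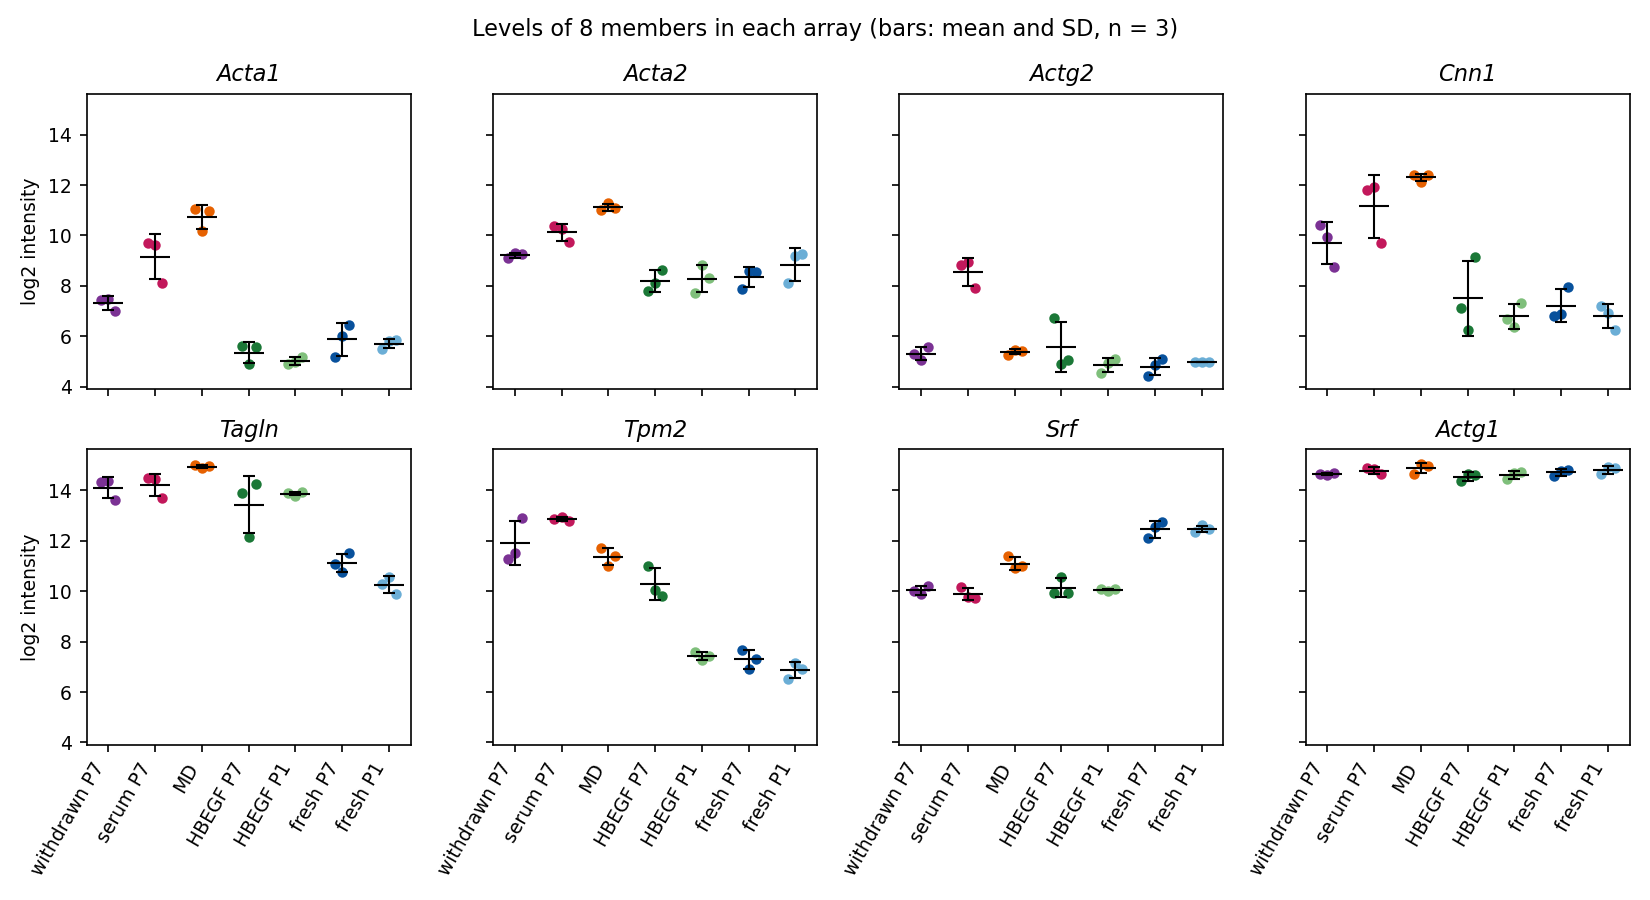
Each panel shows a member, with log2 intensity on the y axis and the 7 groups on the x axis, points for arrays and bars for mean and SD (n = 3). Acta1 and Cnn1 are high in the serum-grown groups and intermediate after withdrawal, Actg2 is high in serum P7 cultures alone, Tagln and Tpm2 differ in which cultures lie above fresh cells, Srf is highest in fresh cells, and Actg1, by its brighter probe set, is nearly level.

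The calponins and transgelins are small proteins that lie along actin filaments, and their muscle forms did not all follow 1 pattern. Cnn1, which damps the myosin ATPase in smooth muscle, read 10.40, 9.95 and 8.75 in withdrawn P7 cultures, 11.81, 11.94 and 9.70 in serum P7 cultures and 12.40, 12.14 and 12.38 in MD cultures. It read 7.12, 6.25 and 9.14 in HBEGF P7 cultures, 6.70, 6.36 and 7.34 in HBEGF P1 cultures, 6.81, 6.89 and 7.96 in fresh P7 cells and 7.21, 6.93 and 6.26 in fresh P1 cells. The MD arrays lay close together and above all others, while the third serum P7 array was lower than its group and the third HBEGF P7 array higher than its group. The change was 5.51 (SE 0.66, adjusted p = 5.57e-06) in MD over HBEGF P1 cultures and 3.64 (SE 0.66, adjusted p = 0.000907) in serum P7 over HBEGF P7 cultures, and in a fit of the compared groups alone the second lost its call (adjusted p = 0.0601).

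Tagln, transgelin or SM22-alpha, was high in every culture, serum-free ones included. It read 14.32, 14.38 and 13.62 in withdrawn P7 cultures, 14.48, 14.44 and 13.69 in serum P7 cultures, 14.99, 14.90 and 14.95 in MD cultures, 13.90, 12.14 and 14.24 in HBEGF P7 cultures and 13.90, 13.79 and 13.92 in HBEGF P1 cultures. Fresh P7 cells had 11.09, 10.77 and 11.50 and fresh P1 cells 10.29, 10.56 and 9.90, lower than any cultured array. The change was 3.62 (SE 0.39, adjusted p = 5.55e-06) in HBEGF P1 cultures over fresh P1 cells, a 12.3-fold difference, and 2.31 (SE 0.39, adjusted p = 0.000359) in HBEGF P7 cultures over fresh P7 cells. Against the HBEGF P1 cultures the MD cultures added 1.07 (SE 0.39, adjusted p = 0.0415), and this call was lost when any 1 of the 6 arrays was left out (adjusted p = 0.0758 to 0.0981), and with values under 32 raised to 32 (adjusted p = 0.0601). In serum P7 over HBEGF P7 cultures the change was 0.78 (adjusted p = 0.178), with overlapping arrays. The MD mean of Tagln, 31579 units, lay near the highest deposited value of any probe set, 37800.668. Whether changes at such high values were compressed was not tested.

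Tagln2, a transgelin of many tissues, was lowest in HBEGF P1 cultures. It read 13.59, 13.47 and 13.52 in MD cultures and 10.19, 9.29 and 10.90 in HBEGF P1 cultures, and 12.66, 12.60 and 13.29 in serum P7 cultures and 10.87, 10.67 and 12.19 in HBEGF P7 cultures. Withdrawn P7 cultures had 12.20, 12.37 and 13.10, fresh P7 cells 10.91, 11.19 and 11.46 and fresh P1 cells 11.43, 11.87 and 11.85. It fell by 1.59 (SE 0.39, adjusted p = 0.00711) in HBEGF P1 cultures against fresh P1 cells, and rose by 3.40 in MD over HBEGF P1 cultures (SE 0.39, adjusted p = 3.35e-06) and by 1.61 in serum P7 over HBEGF P7 cultures (SE 0.39, adjusted p = 0.00707). In a fit of the compared groups alone the last of these lost its call (adjusted p = 0.0717).

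Cnn2 and Cnn3 are calponins of non-muscle cells. Cnn2 averaged 13.49 ± 0.21 in MD cultures and 11.74 ± 0.07 in HBEGF P1 cultures, and 12.97 ± 0.37 in serum P7 cultures and 11.71 ± 0.02 in HBEGF P7 cultures (SD, n = 3 each). Its arrays did not overlap in either pair, with changes of 1.76 (adjusted p = 1.74e-06) and 1.26 (adjusted p = 0.000201). Cnn3 was called in 0 of the 11 comparisons, and its group means lay within 0.50 of each other.

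Tropomyosins coat actin filaments and gate the access of myosin, and caldesmon blocks the myosin ATPase on actin until calmodulin removes it. Tpm2, the beta-tropomyosin of muscle, read 11.28, 11.54 and 12.91 in withdrawn P7 cultures, 12.86, 12.96 and 12.79 in serum P7 cultures and 11.70, 11.01 and 11.41 in MD cultures. It was at 11.02, 10.05 and 9.82 in HBEGF P7 cultures and 7.61, 7.28 and 7.41 in HBEGF P1 cultures, and at 7.66, 6.92 and 7.31 in fresh P7 cells and 6.53, 7.17 and 6.91 in fresh P1 cells. The HBEGF cultures of the 2 ages thus lay apart, those of day 7 above all HBEGF P1 and fresh arrays and those of day 1 overlapping with the fresh P7 cells. The change was 3.94 (SE 0.36, adjusted p = 3.28e-07) in MD over HBEGF P1 cultures, 2.57 (SE 0.36, adjusted p = 0.000104) in serum P7 over HBEGF P7 cultures and 3.00 (SE 0.36, adjusted p = 1.2e-05) in HBEGF P7 cultures over fresh P7 cells. HBEGF P7 cultures exceeded HBEGF P1 cultures by 2.86 (SE 0.36, adjusted p = 0.000805), a call lost in a fit of those groups alone (adjusted p = 0.142).

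The second probe set of Tpm2 did not show this difference between the ages, with -0.08 in HBEGF P7 over HBEGF P1 cultures and -0.30 in HBEGF P7 cultures over fresh P7 cells, both not called, although it was called in both serum comparisons (2.96 in MD over HBEGF P1 cultures and 1.80 in serum P7 over HBEGF P7 cultures). Tpm2 can be spliced in muscle and non-muscle forms, and which form each probe set reads was not analysed here. In the RefSeq annotation Tpm2 and Tln1, another member, are neighbours, with 7663 bases and 0 genes between them.

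Cald1, caldesmon, was among the most culture-dependent of the general members. It read 12.77, 12.80 and 13.12 in withdrawn P7 cultures, 13.15, 13.40 and 13.17 in serum P7 cultures, 13.19, 13.82 and 13.49 in MD cultures, 12.05, 11.77 and 11.90 in HBEGF P7 cultures and 11.23, 10.96 and 11.21 in HBEGF P1 cultures. Fresh P7 cells had 9.06, 9.22 and 9.18 and fresh P1 cells 9.49, 9.53 and 9.09. Every cultured array was above every fresh one, and the serum-grown arrays were above the HBEGF arrays. The change was 1.76 (SE 0.16, adjusted p = 7.09e-07) in HBEGF P1 cultures over fresh P1 cells and 2.75 (SE 0.16, adjusted p = 2.49e-09) in HBEGF P7 cultures over fresh P7 cells, 2.37 (adjusted p = 1.31e-08) in MD over HBEGF P1 cultures and 1.33 (adjusted p = 2.59e-05) in serum P7 over HBEGF P7 cultures. Of its 3 probe sets, 2 were called in each of these comparisons, and with the mean of all 3 the last change was 0.97, just under the limit.

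Tpm1, Tpm3 and Tpm4 are tropomyosins with forms in most cells. Tpm4 changed by 1.45 (adjusted p = 2.25e-05) and Tpm3 by 1.22 (adjusted p = 2.36e-05) in MD over HBEGF P1 cultures, both called, and by 0.79 (adjusted p = 0.00882) and 0.52 (adjusted p = 0.0361) in serum P7 over HBEGF P7 cultures, both under the limit of 1. Tpm1 differed by 0.78 (adjusted p = 0.147) in MD over HBEGF P1 cultures and rose in MD cultures over fresh P1 cells, by 1.84 (adjusted p = 0.00167). Its changes of 1.06 (adjusted p = 0.0787) in HBEGF P1 cultures over fresh P1 cells and 1.07 (adjusted p = 0.0677) in HBEGF P7 cultures over fresh P7 cells were not called, although 4 and 5 of its 7 probe sets were. Their other probe sets were mixed: in MD over HBEGF P1 cultures 2 of the 7 probe sets of Tpm1 and 7 of the 12 of Tpm3 were called higher.

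Among the myosin genes, the light chain Myl9 and the heavy chain Myh9 rose in MD cultures, and the kinase Mylk did not follow. Myl9, the regulatory light chain of smooth muscle and non-muscle myosin, read 10.88, 11.20 and 12.18 in withdrawn P7 cultures, 12.02, 12.06 and 12.33 in serum P7 cultures, 12.77, 12.04 and 12.42 in MD cultures, 11.01, 10.08 and 11.09 in HBEGF P7 cultures and 11.05, 10.73 and 11.004 in HBEGF P1 cultures. The fresh cells had lower means than the cultures, with arrays at 10.04, 9.36 and 10.23 on day 7 and 10.19, 10.27 and 10.08 on day 1. The second HBEGF P7 array lay within the range of these. Myl9 was not called in HBEGF P7 or HBEGF P1 cultures against their fresh cells (adjusted p = 0.0617 and 0.113). Its changes were 1.48 (SE 0.31, adjusted p = 0.00126) in MD over HBEGF P1 cultures and 1.41 (SE 0.31, adjusted p = 0.0041) in serum P7 over HBEGF P7 cultures.

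Myh9, the heavy chain of non-muscle myosin IIA, read 12.78, 12.91 and 12.75 in MD cultures and 10.38, 10.36 and 10.43 in HBEGF P1 cultures, a change of 2.42 (SE 0.21, adjusted p = 2.24e-07). It read 11.93, 11.92 and 11.74 in serum P7 cultures and 10.72, 11.35 and 10.75 in HBEGF P7 cultures, a difference of 0.92 (SE 0.21, adjusted p = 0.00528), which had no overlap of arrays but lay under the limit of 1. The second difference was smaller than the first by 1.503 (SE 0.30, adjusted p = 0.00309). In HBEGF P7 cultures over fresh P7 cells Myh9 rose by 1.30 (adjusted p = 0.000259). Myh10, the heavy chain of myosin IIB, was called in 0 of the 9 comparisons between groups, and its group means lay within 1.01 of each other.

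Mylk, which encodes the myosin light chain kinase that switches on smooth muscle contraction, read 6.90, 7.16 and 6.33 in MD cultures, 6.41, 6.55 and 7.01 in HBEGF P1 cultures and 8.27, 8.28 and 8.20 in fresh P1 cells. It fell by 1.59 (SE 0.41, adjusted p = 0.0103) in HBEGF P1 cultures against fresh P1 cells and by 1.45 (SE 0.41, adjusted p = 0.00988) in MD cultures against fresh P1 cells, and the second call was lost without the third MD array (adjusted p = 0.0517). On day 7 it read 7.41, 7.60 and 9.24 in withdrawn cultures, 8.03, 8.21 and 9.51 in serum cultures, 7.93, 7.43 and 8.10 in HBEGF cultures and 8.58, 8.46 and 8.77 in fresh cells. The third withdrawn and the third serum array were the highest of these, and none of the comparisons run between day 7 groups called it. The other probe set of Mylk was not called in either comparison with fresh P1 cells (-0.07 in HBEGF P1 and 0.13 in MD cultures), and the mean of both probe sets ended both calls (-0.83 and -0.66).

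Of the LIM domain proteins, which ride on stress fibres and adhesions, Fhl2 is best known from heart muscle and as a partner of SRF. It read 11.10, 10.67 and 11.20 in withdrawn P7 cultures, 10.91, 11.59 and 12.72 in serum P7 cultures, 10.99, 10.42 and 10.48 in MD cultures, 9.42, 8.04 and 10.26 in HBEGF P7 cultures and 8.04, 8.34 and 8.86 in HBEGF P1 cultures. Fresh P7 cells had 7.53, 8.39 and 8.54 and fresh P1 cells 8.05, 8.17 and 7.63. Unlike Cnn1 it was highest in the third serum P7 array. The change was 2.22 (SE 0.48, adjusted p = 0.00141) in MD over HBEGF P1 cultures and 2.50 (SE 0.48, adjusted p = 0.00133) in serum P7 over HBEGF P7 cultures, the second of which lost its call in a fit of the compared groups alone (adjusted p = 0.0720).

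Pdlim7, enigma, separated the MD cultures from all the rest. It read 8.63, 8.74 and 8.41 in withdrawn P7 cultures, 9.96, 9.86 and 9.18 in serum P7 cultures, 11.93, 11.50 and 11.69 in MD cultures, 9.34, 8.98 and 9.91 in HBEGF P7 cultures and 9.79, 9.25 and 9.74 in HBEGF P1 cultures, with 9.30, 9.33 and 9.45 in fresh P7 cells and 9.79, 9.86 and 9.84 in fresh P1 cells. The change was 2.12 (SE 0.22, adjusted p = 1.37e-06) in MD over HBEGF P1 cultures and 0.25 (SE 0.22, adjusted p = 0.453) in serum P7 over HBEGF P7 cultures, and the difference between them, -1.86 (SE 0.31, adjusted p = 0.000993), was called. Its other probe set gave 3.45 and 2.01 in these comparisons, both called, so the lack of a call in serum P7 cultures holds for 1 of its 2 probe sets.

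Csrp1, a cysteine-rich protein of smooth muscle, and Tgfb1i1, or Hic-5, an adhesion partner of paxillin, also rose. Csrp1 read 12.77, 13.45 and 13.48 in MD cultures and 11.07, 11.52 and 12.02 in HBEGF P1 cultures, a change of 1.69 (adjusted p = 0.000256), and it reached 0.99 (adjusted p = 0.0253) in serum P7 over HBEGF P7 cultures, just under the limit. Tgfb1i1 read 11.75, 12.06 and 12.20 in MD cultures, 10.02, 10.17 and 10.01 in HBEGF P1 cultures, 11.64, 11.51 and 11.53 in serum P7 cultures and 10.19, 10.38 and 10.21 in HBEGF P7 cultures. Its arrays were apart in both pairs, with changes of 1.94 (adjusted p = 1.18e-06) and 1.30 (adjusted p = 0.000259).

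Des encodes desmin, the intermediate filament of muscle. It read 6.65, 6.64 and 7.40 in withdrawn P7 cultures, 7.87, 7.70 and 8.75 in serum P7 cultures, 6.49, 7.94 and 7.47 in MD cultures, 6.18, 6.65 and 6.14 in HBEGF P7 cultures and 6.10, 6.33 and 6.17 in HBEGF P1 cultures. In fresh cells it read 6.44, 6.65 and 6.73 on day 7 and 6.24, 6.72 and 6.58 on day 1, under the median of all values. The change was 1.78 (SE 0.32, adjusted p = 0.000837) in serum P7 over HBEGF P7 cultures and 1.10 (SE 0.32, adjusted p = 0.012) in MD over HBEGF P1 cultures, and without the second MD array the MD change was 0.78 (adjusted p = 0.0743) and not called.

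The cross-linkers and adhesion proteins tie filaments to each other and to the membrane. Actn1, an alpha-actinin that ties actin filaments into stress fibres, read 11.92, 11.62 and 11.19 in withdrawn P7 cultures, 12.94, 12.68 and 11.79 in serum P7 cultures, 14.02, 13.99 and 13.94 in MD cultures, 11.33, 10.23 and 12.15 in HBEGF P7 cultures and 11.57, 10.92 and 11.61 in HBEGF P1 cultures. Fresh P7 cells had 10.76, 11.28 and 11.21 and fresh P1 cells 11.27, 11.29 and 11.17. The change was 2.62 (SE 0.37, adjusted p = 3e-05) in MD over HBEGF P1 cultures. In serum P7 over HBEGF P7 cultures it was 1.23 (SE 0.37, adjusted p = 0.0248), with overlapping arrays, and the call was lost without the second HBEGF P7 array, the first serum P7 array or the second serum P7 array (adjusted p = 0.129, 0.106 and 0.0842), and in a fit of the compared groups alone (adjusted p = 0.198).

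Flna, filamin A, which joins crossing filaments, read 13.41, 13.75 and 13.52 in MD cultures and 11.36, 11.80 and 11.24 in HBEGF P1 cultures, a change of 2.09 (SE 0.24, adjusted p = 4.1e-06). It read 12.84, 12.65 and 11.999 in serum P7 cultures and 11.70, 11.45 and 11.50 in HBEGF P7 cultures, a difference of 0.95 (SE 0.24, adjusted p = 0.0104) that lay just under the limit. Actn4, a second alpha-actinin, changed by 1.66 (adjusted p = 1.42e-05) in MD over HBEGF P1 cultures and by 0.08 (adjusted p = 0.843) in serum P7 over HBEGF P7 cultures, and the difference between those changes, -1.58 (adjusted p = 0.00255), was called.

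Zyx, zyxin, and Vasp both act at adhesions where filaments grow. Zyx averaged 10.85 ± 0.21 in MD cultures and 9.21 ± 0.43 in HBEGF P1 cultures (SD, n = 3 each), a change of 1.64 (adjusted p = 0.000224), and it had fallen by 1.25 (SE 0.28, adjusted p = 0.0044) in HBEGF P1 cultures against fresh P1 cells. MD cultures and fresh P1 cells, which averaged 10.46 ± 0.37, overlapped for this gene. Vasp changed by 1.41 (adjusted p = 3.6e-06) and Tln1, talin, which links integrins to actin, by 1.20 (adjusted p = 0.000162) in MD over HBEGF P1 cultures. Vcl, vinculin, differed by 0.94 (adjusted p = 0.00302), short of the limit. In serum P7 over HBEGF P7 cultures the differences were 0.68 (adjusted p = 0.105) for Zyx, 0.79 (adjusted p = 0.00234) for Vasp, 0.30 (adjusted p = 0.309) for Tln1 and 0.16 (adjusted p = 0.645) for Vcl, none called, and for none of these genes was the difference between the changes called. Pfn1, profilin 1, which carries actin monomers to growing ends, read 14.19, 14.10 and 14.13 in MD cultures and 12.30, 12.68 and 12.51 in HBEGF P1 cultures, a change of 1.64 (SE 0.21, adjusted p = 1.21e-05), and differed by 0.85 (adjusted p = 0.00887) in serum P7 over HBEGF P7 cultures.

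Srf was higher in fresh cells of both ages than in any culture. It read 9.99, 9.88 and 10.22 in withdrawn P7 cultures, 10.15, 9.77 and 9.74 in serum P7 cultures, 11.38, 10.91 and 10.99 in MD cultures, 9.91, 10.58 and 9.93 in HBEGF P7 cultures and 10.08, 10.02 and 10.08 in HBEGF P1 cultures. Fresh P7 cells had 12.10, 12.53 and 12.73 and fresh P1 cells 12.36, 12.61 and 12.45, above every cultured array. Srf fell by 2.41 (SE 0.19, adjusted p = 1.66e-07) in HBEGF P1 cultures against fresh P1 cells, by 2.31 (SE 0.19, adjusted p = 1.98e-07) in HBEGF P7 cultures against fresh P7 cells and by 1.38 (SE 0.19, adjusted p = 2.24e-05) in MD cultures against fresh P1 cells. In MD cultures against fresh P1 cells 2 of its 3 probe sets were called lower, with changes of the 3 from -2.56 to -0.35. All 3 of its probe sets were called lower in both HBEGF comparisons with fresh cells. It rose by 1.03 in MD over HBEGF P1 cultures (SE 0.19, adjusted p = 0.00042), which is below the limit without the first MD array (0.89) or with the mean of its probe sets (0.89), and differed by -0.25 (adjusted p = 0.385) in serum P7 over HBEGF P7 cultures. The difference between these, -1.28 (adjusted p = 0.00453), was called, but its other 2 probe sets gave -0.60 and -0.19, neither called, and with the mean of all 3 it was -0.69 and not called.

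Other genes of the route were described from lists written from textbook knowledge, and these were tested in the same fit. Further cytoskeletal targets of SRF and its partners numbered 16. In MD over HBEGF P1 cultures 12 of them rose (8.81% of all genes) and 1 fell (9.57%), with a median change of 1.99. In serum P7 over HBEGF P7 cultures 9 of them rose (4.83% of all genes), with a median change of 1.26. The largest in MD cultures were Pdlim1 at 3.93 (adjusted p = 2.33e-09), Ccn1 at 3.35 (adjusted p = 4.9e-05), the adhesion protein Tes at 3.34 (adjusted p = 1.58e-08) and Ccn2, connective tissue growth factor, at 3.22 (adjusted p = 9.24e-07). In serum P7 cultures they were Filip1l at 2.39 (adjusted p = 0.00516), Ccn2 at 2.14 (adjusted p = 0.000218), Fblim1 at 2.03 (adjusted p = 0.00261) and Ccn1 at 1.93 (adjusted p = 0.0104). Among 7 measured regulators of SRF, Mrtfa, which encodes an actin-sensing partner of SRF, rose by 1.30 in MD over HBEGF P1 cultures and by 1.14 in serum P7 over HBEGF P7 cultures (adjusted p = 3.02e-06 and 5.53e-05), while Elk3 and Myocd rose in the first of these (1.52 and 1.05) and were not called in the second. The difference between the changes was called for 0 of the 7 regulators.

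Of 10 further smooth muscle genes, 6 rose in MD over HBEGF P1 cultures (8.81% of all genes) and 3 in serum P7 over HBEGF P7 cultures (4.83%). Lmod1, leiomodin 1, an actin nucleator of smooth muscle, changed by 2.62 (adjusted p = 5.61e-06) and 2.22 (adjusted p = 0.000123) in these, Hspb6, a small heat shock protein of muscle, by 1.65 (adjusted p = 6.33e-06) and 1.33 (adjusted p = 0.0002), and Smtn, smoothelin, by 2.42 (adjusted p = 1.03e-06) in the first. Fewer genes were called in the lists of actin assembly and focal adhesion. Of 19 genes of actin assembly and turnover 2 rose and 1 fell in the first comparison and 1 rose in the second. As parts of the list these counts lay near the shares over all genes, of which 8.81% rose and 9.57% fell in the first and 4.83% rose in the second. Arpc1b, a subunit of the Arp2/3 complex, rose in both, by 3.31 (adjusted p = 9.33e-09) and 1.99 (adjusted p = 9.53e-06). Of 13 focal adhesion genes 3 rose in the first, and 1 rose and 1 fell (4.47% of all genes) in the second. Of 10 TGF-beta response genes 6 rose in the first and 5 in the second, led in both by the matrix protein gene Ltbp2, at 4.07 (adjusted p = 1.11e-07) and 3.08 (adjusted p = 9.98e-06).

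Serum withdrawal was tested by setting withdrawn P7 cultures against serum P7 cultures and against HBEGF P7 cultures, which never had serum. In withdrawn over serum P7 cultures 0 members rose (2.24% of all genes did) and 4 fell (2.26%), and the median change was -0.41 over the members and 0.02 over all genes. In withdrawn over HBEGF P7 cultures 7 members rose (6.29% of all genes) and 0 fell (5.42%), with a median of 0.55 over the members and 0.01 over all genes. These comparisons share arrays with each other and with the serum comparison. Of the 13 members raised in serum P7 cultures, 12 had a mean in withdrawn cultures between that of the serum P7 and that of the HBEGF P7 cultures. Of all genes raised in serum P7 cultures 69.0% did, and choosing genes by their rise on the same serum and HBEGF arrays favours such a place. With the third serum P7 and the third withdrawn P7 array left out, 5 members fell against serum P7 cultures and 5 rose against HBEGF P7 cultures. Of the 10 fibroblast and meningeal markers, 6 rose in withdrawn over HBEGF P7 cultures and 0 were called against serum P7 cultures. Over HBEGF P7 cultures 3 of 10 mural, 3 of 8 microglia and macrophage and 2 of 7 endothelial markers rose as well, and 4 of 8 neuron and 2 of 6 oligodendrocyte lineage markers fell. Over serum P7 cultures 3 microglia and macrophage markers, 1 mural and 1 endothelial marker rose and 1 neuron marker fell, and the microglia and macrophage markers summed to 1137 to 3285 units in withdrawn and 362 to 417 in serum P7 cultures. The part of these markers in the members' values was not tested. The withdrawn cultures had also spent 7 days longer in culture, with HBEGF in the medium. Against serum P7 cultures, removal of serum, addition of HBEGF and time cannot be told apart. Against HBEGF P7 cultures, earlier serum and time cannot be told apart.

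Actg2 fell the most after withdrawal, by 3.23 (SE 0.36, adjusted p = 8.01e-05) against serum P7 cultures, a 9.39-fold difference, and differed from HBEGF P7 cultures by -0.26 (adjusted p = 0.638), with means of 5.32 ± 0.26 in withdrawn, 8.55 ± 0.57 in serum P7 and 5.57 ± 1.01 in HBEGF P7 cultures (SD, n = 3 each). Acta1 came to lie between these groups, and fell by 1.84 (SE 0.38, adjusted p = 0.00691) against serum P7 cultures while it stayed above HBEGF P7 cultures by 1.96 (SE 0.38, adjusted p = 0.00145). In a fit of the compared groups alone its fall lost the call (adjusted p = 0.0641). Acta2 differed by -0.92 (SE 0.31, adjusted p = 0.0904) from serum P7 cultures, with no overlap of arrays, and by 1.02 (SE 0.31, adjusted p = 0.0251) from HBEGF P7 cultures, a call that was lost without the first or second HBEGF P7 array or the second or the third withdrawn array (adjusted p = 0.0667 to 0.104).

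Des fell by 1.21 (SE 0.32, adjusted p = 0.0282) against serum P7 cultures, but not when the first or the third serum P7 array or the first or second withdrawn array was left out (adjusted p = 0.0534 to 0.120). Pdlim7 fell by 1.07 (SE 0.22, adjusted p = 0.00721), and its other probe set was called as well (-1.08). Without the first or second serum P7 array or the third withdrawn array its change was -0.92 to -0.98, under the limit in size. Against HBEGF P7 cultures it differed by -0.82 (adjusted p = 0.0131), while its other probe set differed in the opposite direction, by 0.93 (adjusted p = 0.0245), and neither was called.

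The members that rose in withdrawn over HBEGF P7 cultures were Cnn1, Acta1, Fhl2, Tpm2, Tagln2, Csrp1 and Acta2. Fhl2 was higher by 1.75 (SE 0.48, adjusted p = 0.0133), a call lost without the second HBEGF P7 array (1.15, adjusted p = 0.0767), and Tpm2 by 1.61 (SE 0.36, adjusted p = 0.00392). The second probe set of Tpm2 gave 0.47 there and was not called. Against serum P7 cultures that second probe set was called lower (-1.33), while the brighter one differed by -0.96 (adjusted p = 0.122) and was not called. Cnn1 was higher by 2.19 (SE 0.66, adjusted p = 0.0226), with overlapping arrays, and Tagln2 by 1.31 (SE 0.39, adjusted p = 0.0208). The call of Cnn1 was lost without the first or second HBEGF P7 or the first or second withdrawn array (adjusted p = 0.0704 to 0.117), and without the same arrays that of Csrp1 was lost as well (adjusted p = 0.0568 to 0.0681, against 0.0174 for its change of 1.04 with all arrays). That of Tagln2 was lost without the first or second HBEGF P7 or the third withdrawn array (adjusted p = 0.0798 to 0.0989). In a fit of the compared groups alone Cnn1, Csrp1, Fhl2, Tpm2 and Tagln2 lost their calls, with adjusted p between 0.0507 and 0.121, and Acta1 and Acta2 kept theirs.

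**Figure D5:**
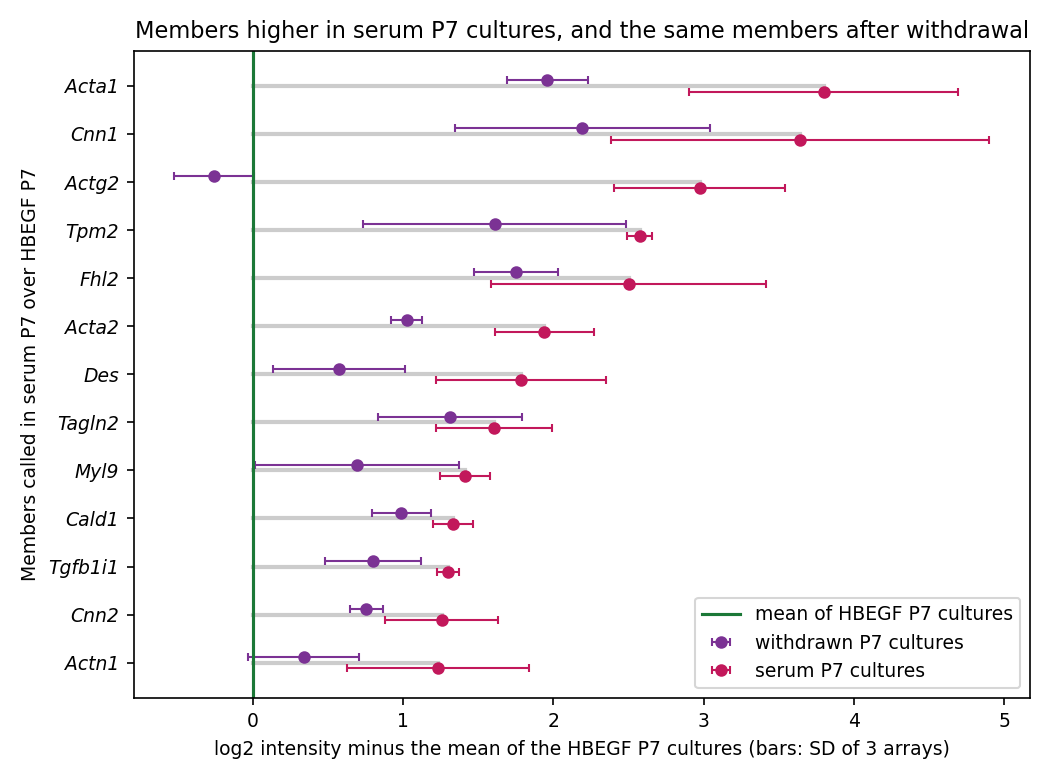
Each row is a member called higher in serum P7 over HBEGF P7 cultures, with log2 intensity minus the mean of the HBEGF P7 cultures on the x axis, means of withdrawn P7 and serum P7 cultures as points and SDs of 3 arrays as bars. The withdrawn mean lies between 0 and the serum mean for 12 members, and below 0 for Actg2.

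Culture without serum was compared with fresh cells at each age. In HBEGF P1 cultures over fresh P1 cells 2 members rose (4.38% of all genes), Tagln and Cald1, and 4 fell (4.49%), Srf, Mylk, Tagln2 and Zyx. In HBEGF P7 cultures over fresh P7 cells 5 rose (4.78%), Tpm2, Cald1, Tagln, Myh9 and Csrp1, and 1 fell (5.51%), Srf. The median change was -0.08 over the members and 0.03 over all genes on day 1, and 0.22 and 0.07 on day 7. Acta1, Acta2 and Cnn1 were not called in serum-free culture, with changes of -0.70 (adjusted p = 0.231), -0.56 (adjusted p = 0.257) and 0.00 (adjusted p = 1) on day 1 and -0.52 (adjusted p = 0.373), -0.16 (adjusted p = 0.776) and 0.29 (adjusted p = 0.819) on day 7. The call of Csrp1 on day 7, 1.04 (adjusted p = 0.0175), was lost without the first fresh P7 array or the third HBEGF P7 array (adjusted p = 0.0679 and 0.0770).

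In MD cultures over fresh P1 cells 21 members rose (10.1% of all genes) and 2 fell (9.43%), with a median of 1.70 over the members and 0.11 over all genes. Cnn1 rose by 5.51 (SE 0.66, adjusted p = 4.45e-06), Acta1 by 5.03 (SE 0.38, adjusted p = 2.46e-08), Tagln by 4.70 (SE 0.39, adjusted p = 8.24e-08), Tpm2 by 4.51 (SE 0.36, adjusted p = 4.61e-08) and Cald1 by 4.13 (SE 0.16, adjusted p = 8.9e-12). The falls were those of Srf and Mylk given above. Tln1, at 1.19 (adjusted p = 0.000152), lay just under the limit without the third fresh P1 array (0.996).

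Few members were called between the ages. In fresh P7 over fresh P1 cells 0 members were called with limma, while 1.37% of all genes rose and 0.183% fell. The largest difference was that of Tagln, 0.87 (adjusted p = 0.262), and the smallest adjusted p was that of Myh10, -0.59 (adjusted p = 0.017). In HBEGF P7 over HBEGF P1 cultures 1 member rose (0.753% of all genes), Tpm2, and 0 fell (0.359%). The change from fresh cells to HBEGF culture differed between the ages for Tpm2 alone among the members by the call rule (1 higher, beside 0.162% of all genes, and 0 lower, beside 0.654%), at 2.43 (SE 0.51, adjusted p = 0.0337), a call that was lost without the second or the third fresh P1, the second or the third fresh P7 or any HBEGF P1 array (adjusted p = 0.0577 to 0.103), with values under 32 raised to 32 (adjusted p = 0.0505) and with the mean of its probe sets (1.32, adjusted p = 0.0695). Its second probe set gave 0.21 there, not called.

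The change in serum P7 over HBEGF P7 cultures differed from that in MD over HBEGF P1 cultures for 9 members. The first change was larger than the second for 1 member, Actg2 (5.02% of all genes). It was smaller for 8 (6.29% of all genes), Acta1, Pdlim7, Tagln2, Actn4, Myh9, Srf, Flna and Cald1, of which 7 are general members. The call of Flna was lost without the second or the third MD, the first or the third HBEGF P1, the first or the third HBEGF P7 or the third serum P7 array (adjusted p = 0.0502 to 0.0934). That of Tagln2 was lost without any MD array, the first or second HBEGF P1, the third HBEGF P7 or the first or second serum P7 array (adjusted p = 0.0557 to 0.106), in a fit of the compared groups alone (adjusted p = 0.103) and with values under 32 raised to 32 (adjusted p = 0.0578). Cald1 came under the limit, at -0.87 to -0.99, without the second MD, the second HBEGF P1, the first HBEGF P7 or the first serum P7 array, with quantile normalization (-0.97) and with the mean of its probe sets (-0.92). The median difference was -0.74 over the members and -0.05 over all genes. For Cnn1 the difference was -1.87 (adjusted p = 0.224), for Acta2 -0.89 (adjusted p = 0.223) and for Fhl2 0.28 (adjusted p = 0.855), none of which was called. The 2 changes come from cells of different age. Only the MD change also holds a difference in isolation, since the HBEGF P1 cultures were panned and the MD cultures were not. Age and isolation cannot be told apart here.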

How the data were processed

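Total RNA of 21 samples was read on Affymetrix Rat 230 2.0 arrays, after extraction with QIAGEN RNeasy columns and labelling with the 3' IVT Express kit, per the labels' protocols. The authors deposited 1 linear intensity per probe set and array, normalized by RMA per the submitters' processing notes (its version is not given in the sources used here). RMA brings arrays to 1 distribution, so a shift of all genes together would not show, and it shrinks changes of dim genes. The deposited intensities ran from 10.025 to 37800.668, and the number of arrays limits the precision.

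Log2 intensities were fitted with limma 3.58.1 in R 4.3.3 as 7 group means, with Benjamini-Hochberg adjustment over 31042 probe sets, of which 20826 carried 1 gene symbol, 436 several and 9780 none in the platform annotation. Tests were run on simulated data first. Comparisons of 3 against 3 samples by exact permutation cannot give a two-sided p under 0.1, so none was used. The differences of changes are contrasts of 4 groups in the same fit. The members and lists were chosen with earlier results of these data known, and the text names every measured member and, of each other list, the genes with the largest called changes; 1 list is not reported here. Deviations of same-numbered arrays correlated over 0.1 in every pair for HBEGF P1 against fresh P1, HBEGF P7 against HBEGF P1, MD against fresh P1, MD against HBEGF P1 and withdrawn P7 against serum P7, and not in the other 4 comparisons of groups. These correlations come from the data, since the labels give a number only. Alternatives were a replicate block, quantile normalization, a floor of 32, a filter on dim probe sets, the mean of all probe sets of a gene, the compared groups alone, an intensity trend in the prior variance, no limit on the change, and each array left out.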

Additional observations from a re-analysis of the deposited data

Results flagged for a closer look

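In 10 cases a change differed between 2 settings of the study by a tested contrast of the same limma fit. The change from fresh cells to HBEGF culture was larger on day 7 than on day 1 for Tpm2, by 2.43 (adjusted p = 0.0337).

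For 9 members the change in serum P7 over HBEGF P7 cultures differed from that in MD over HBEGF P1 cultures, given here as the first minus the second. The second change also holds a difference in isolation. The first was larger for Actg2, by 2.46. It was smaller for Acta1 (-1.93), Pdlim7 (-1.86), Tagln2 (-1.79), Actn4 (-1.58), Myh9 (-1.503), Srf (-1.28), Flna (-1.15) and Cald1 (-1.04). All of these had an adjusted p under 0.05, and the arrays whose removal ended a call are named with the results. The calls also ended with the mean of all probe sets for Tpm2 (adjusted p = 0.0695), Srf (-0.69) and Cald1 (-0.92), with quantile normalization for Cald1 (-0.97), with values under 32 raised to 32 for Tpm2 and Tagln2 (adjusted p = 0.0505 and 0.0578), and in a fit of the compared groups alone for Acta1 and Tagln2 (adjusted p = 0.0599 and 0.103).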

How the results depend on the processing

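Over all comparisons 95 single calls of members were made. Of these, 19 were lost when at least 1 array was left out, 22 under at least 1 other alternative, and 0 changed direction. With no limit on the change, the number of members called was 1 in fresh P7 over fresh P1 cells, 2 in HBEGF P7 over HBEGF P1, 21 in serum P7 over HBEGF P7 and 14 in withdrawn P7 over HBEGF P7 cultures, and 2 for the difference of the culture changes. In a fit of the compared groups alone it was 0 in HBEGF P7 over HBEGF P1, 2 in withdrawn P7 over serum P7 and 2 in withdrawn P7 over HBEGF P7 cultures. For the difference of the culture changes it was 2 with quantile normalization, 0 with the floor of 32 and 0 with the mean of all probe sets.

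Leaving out 1 array at a time gave 0 to 0 members in fresh P7 over fresh P1 cells, 6 to 6 in HBEGF P1 cultures over fresh P1 cells, 5 to 10 in HBEGF P7 cultures over fresh P7 cells, 1 to 1 in HBEGF P7 over HBEGF P1 cultures, 22 to 25 in MD cultures over fresh P1 cells and 23 to 24 in MD over HBEGF P1 cultures. It gave 12 to 15 in serum P7 over HBEGF P7, 2 to 5 in withdrawn P7 over serum P7 and 3 to 7 in withdrawn P7 over HBEGF P7 cultures, 0 to 2 for the difference of the culture changes and 6 to 10 for the difference of the serum changes. The count was 10 in HBEGF P7 cultures over fresh P7 cells without the second HBEGF P7 array, and 2 in withdrawn P7 over serum P7 cultures without the first serum P7 array. In withdrawn P7 over HBEGF P7 cultures it was 4 without the first HBEGF P7 array. Without the second it was 3 there, of which 2 were higher and 1 was lower. For the difference of the culture changes it was 0 without the second fresh P1, the second or the third fresh P7 or any HBEGF P1 array, and 2 without the second HBEGF P7 array. The cause was not tested.

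The replicate block left the count of members called at 0 in fresh P7 over fresh P1 cells, 6 in each HBEGF culture over its fresh cells, 1 in HBEGF P7 over HBEGF P1 cultures, 23 and 25 for MD cultures over fresh P1 cells and HBEGF P1 cultures, 13 in serum P7 over HBEGF P7 cultures, 4 and 7 for withdrawn P7 over serum P7 and HBEGF P7 cultures, and 1 and 9 for the differences of the culture and the serum changes, and it changed no call of a member. Several members had group means under the median of all values, where RMA is known to compress changes. These were Actg2 outside the serum P7 cultures, Acta1 in fresh cells and HBEGF cultures, and Des in fresh cells, HBEGF cultures and withdrawn cultures. Others were Cnn1 in HBEGF P1 cultures (6.80) and fresh P1 cells (6.80), Tpm2 in fresh P1 cells (6.87) and Mylk in HBEGF P1 (6.66) and MD cultures (6.80).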

Other observations

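Genes of striated muscle were mostly dim in these cells, and the brightest of those listed in the cultured P7 groups was Tnnt2. Of 12 striated muscle markers, 10 had a mean under the median of all log2 values in withdrawn P7 cultures, 11 in serum P7 cultures and 12 in MD cultures. Tnnt2, cardiac troponin T, which holds tropomyosin on the thin filament of the heart, averaged 12.05 ± 0.40 in withdrawn P7 cultures, 10.20 ± 0.60 in serum P7 cultures, 6.58 ± 0.19 in MD cultures, 7.79 ± 1.31 in HBEGF P7 cultures, 5.81 ± 0.42 in HBEGF P1 cultures, 5.22 ± 0.76 in fresh P7 cells and 5.39 ± 0.29 in fresh P1 cells (SD, n = 3 each). It rose by 2.41 in serum P7 over HBEGF P7 cultures (adjusted p = 0.00255), and, unlike the members raised in serum P7 cultures, it rose again by 1.85 in withdrawn P7 over serum P7 cultures (adjusted p = 0.0327). The lowest withdrawn array, 11.58, lay above the highest serum P7 array, 10.62.

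Myl1, a light chain of fast skeletal myosin, averaged 5.98 ± 0.45 in withdrawn P7 cultures, 6.10 ± 0.64 in serum P7 cultures and 4.64 ± 0.07 in HBEGF P7 cultures (SD, n = 3 each), and rose by 1.46 in serum P7 over HBEGF P7 cultures (adjusted p = 0.000589). Myh3, the embryonic skeletal myosin heavy chain, rose by 1.26 in the same comparison (adjusted p = 0.000213). Both stayed under the median of all values, 7.11, on every array. In MD over HBEGF P1 cultures 0 of the 12 markers rose (8.81% of all genes) and 2 fell (9.57%).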
